A study of Mus musculus with 4 samples.

Results

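Sgk1, Rcan1, Bcl6 and Pdlim1 were examined in mouse renal cortex across diabetes and deletion of the adhesion molecule ICAM-1. The 4 genes, each with 1 probe, were taken by symbol (2 of them listed under the older names Sgk and Dscr1) from the 9900 genes on the array. They were selected on the measured values themselves, because their difference between diabetic and nondiabetic mice was not the same in the 2 genotypes, and the selection drew on all 4 arrays. Their levels are therefore given as a description, without a test.

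Male C57BL/6J mice with intact ICAM-1 (ICAM-1+/+, WT) and male ICAM-1-/- mice on the C57BL/6J background (KO) entered the study at 8 weeks of age. Diabetic groups (DM-WT and DM-KO) received streptozotocin, a toxin of insulin-producing beta cells, as 1 intraperitoneal dose of 200 mg/kg in citrate buffer, and mice above 16 mmol/L blood glucose on day 7 were kept. Nondiabetic groups (ND-WT and ND-KO) received the buffer alone. Kidneys were taken at 20 weeks of age, 12 weeks after injection, from groups of 5 mice. The ICAM-1 deletion is a germline one and not specific to kidney, and whether the WT mice were littermates of the KO mice is not given in the sources used here. Cortical RNA of each group is represented by 1 CodeLink array, a slide of short oligonucleotide probes. The labels do not say whether that array carried RNA of 1 mouse or of a pool. The targeted gene itself was not analysed here.

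SGK1 is a serine/threonine kinase whose transcript is induced by glucocorticoids, mineralocorticoids, serum and cell shrinkage. In the distal nephron it phosphorylates the ubiquitin ligase NEDD4-2 (Nedd4l), which keeps the epithelial sodium channel ENaC at the cell surface. RCAN1 binds and inhibits calcineurin, the calcium-activated phosphatase that moves NFAT transcription factors into the nucleus, and a short RCAN1 form is itself transcribed under NFAT from an internal start site. BCL6 is a zinc finger repressor best known from germinal centre B cells and follicular helper T cells, where it recruits corepressors such as NCOR1 and BCOR. PDLIM1 carries a PDZ and a LIM domain and binds alpha-actinin on actin stress fibres.

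On the mouse GRCm38.p6 assembly, Sgk1 (gene ID 20393) lies at chr10:21882184-21999903, Rcan1 (gene ID 54720) at chr16:92391951-92466169, Bcl6 (gene ID 12053) at chr16:23965050-23988866 and Pdlim1 (gene ID 54132) at chr19:40222239-40271616. RefSeq promoter windows were searched on both strands, over the 250 bases before each annotated start, for the glucocorticoid response element palindrome (AGAACA, any 3 bases, then TGTTCT), a single arm of it, AGAACA, the NFAT core TGGAAA, the TATA box TATAAA and the cyclic AMP response element TGACGTCA. The single arm overlaps the palindrome by construction. The 3 windows printed are those in which the palindrome, or the NFAT core beside another of these motifs, was found at a start internal to the gene. Each is written 5′ to 3′ along the gene, with the palindrome, NFAT cores and cyclic AMP element in capitals. They are Sgk1 at chr10:21993640-21993889 on the plus strand, Rcan1 at chr16:92400079-92400328 on the minus strand and Bcl6 at chr16:23981284-23981533 on the minus strand.
Sgk1: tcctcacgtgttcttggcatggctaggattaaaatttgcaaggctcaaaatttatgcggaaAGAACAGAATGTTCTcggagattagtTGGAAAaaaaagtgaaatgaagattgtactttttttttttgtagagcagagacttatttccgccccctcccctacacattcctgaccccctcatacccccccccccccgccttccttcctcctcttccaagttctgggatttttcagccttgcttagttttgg
Rcan1: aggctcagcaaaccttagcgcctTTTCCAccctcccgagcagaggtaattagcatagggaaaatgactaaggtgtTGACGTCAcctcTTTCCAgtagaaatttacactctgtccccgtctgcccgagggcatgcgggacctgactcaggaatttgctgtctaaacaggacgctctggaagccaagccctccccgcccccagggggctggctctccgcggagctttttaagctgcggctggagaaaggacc
Bcl6: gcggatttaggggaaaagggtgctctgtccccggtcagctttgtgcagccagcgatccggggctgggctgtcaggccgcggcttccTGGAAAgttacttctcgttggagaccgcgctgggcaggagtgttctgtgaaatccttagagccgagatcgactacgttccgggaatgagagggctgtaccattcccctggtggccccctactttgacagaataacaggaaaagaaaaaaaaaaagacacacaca

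The Sgk1 window, 1 of 6 annotated for that gene, held the full palindrome at 189 to 175 bases before the start and an NFAT core at 163 to 158 bases. It also held a separate single arm, left in lower case, at 242 to 237 bases. Of the Sgk1 windows not printed, numbered along the gene, window 1 held a single arm and an NFAT core. Window 4 held a single arm and a TATA box, and window 6 a TATA box. The palindrome was present in 3 of 32851 promoter windows of the genome (0.0091%). The Rcan1 window, 1 of 2, held NFAT cores at 227 to 222 and 163 to 158 bases and a cyclic AMP element at 175 to 168 bases before the start. The Bcl6 window, 1 of 2, held an NFAT core at 164 to 159 bases and a single arm of the palindrome, left in lower case, at 124 to 119 bases. The single Pdlim1 window held none of the 5 motifs. An NFAT core occurred in 18.6% of all windows, a single arm in 16.1%, a TATA box in 12.4% and a cyclic AMP element in 1.55%. These matches describe letters in the windows and were not linked to factor binding, and which of these start sites the probes report was not examined.

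Values are log2 intensities after background correction and quantile normalization of the 4 arrays. With no replicate array, error is the SD between repeated spots of bacterial control probes within an array, which was 0.0987 log2 for 1 spot, 0.1396 for a difference between 2 arrays and 0.1975 for a difference between 2 such differences. It leaves out the spread between mice. Wherever 4 values follow each other they stand for nondiabetic WT, diabetic WT, nondiabetic KO and diabetic KO. A gene is called different where 2 arrays differ by at least 1.5-fold. All 4 probes had usable spots on all 4 arrays, and 5914 genes had. In whole cortex, a change in the number of cells of a type cannot be told apart from a change in RNA per cell.

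Sgk1 read 8.78 on the nondiabetic and 10.18 on the diabetic WT array, and 8.03 and 8.09 on the matching KO arrays. The DM-WT array stood alone above the other 3, and the 2 KO arrays were lowest and differed from each other by 0.05, less than the spot error. Before normalization the spot means were 456, 1005, 270.0 and 282 in the same order, over local backgrounds of 46 to 49, so that Sgk1 was well clear of background everywhere. Diabetic WT cortex was thus 2.65-fold above nondiabetic WT cortex (log2 difference 1.40), while the diabetic KO array was 1.04-fold above its control (0.05). Without diabetes the KO array was 1.67-fold below WT (log2 difference -0.74), and with diabetes 4.26-fold below (-2.09). The diabetes difference in WT exceeded that in KO by 1.35 ± 0.20 (SD between spots), the ninth highest among 5914 genes.

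The WT arrays gave Rcan1 a level of 7.30 without and 8.65 with diabetes, and the KO arrays 7.15 and 7.30. Here too the DM-WT array stood alone, but the other 3 lay within 0.15 of each other, and ND-WT and DM-KO differed by 0.0011. Spot means were 161, 346, 144 and 164 over backgrounds of 48 to 49. Diabetic WT cortex was 2.54-fold above its control (log2 difference 1.35) and diabetic KO cortex 1.11-fold above its own (0.15). The genotypes differed by 1.11-fold without diabetes (-0.15) and by 2.54-fold with it (-1.35), KO being lower. The difference of the diabetes differences was 1.19 ± 0.20 (SD between spots), ranked 10 from the highest of 5914 genes. Sgk1 and Rcan1 thus had their highest level on the same array, and without diabetes KO was below WT by 1.67-fold for Sgk1 and 1.11-fold for Rcan1.

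**Figure D1:**
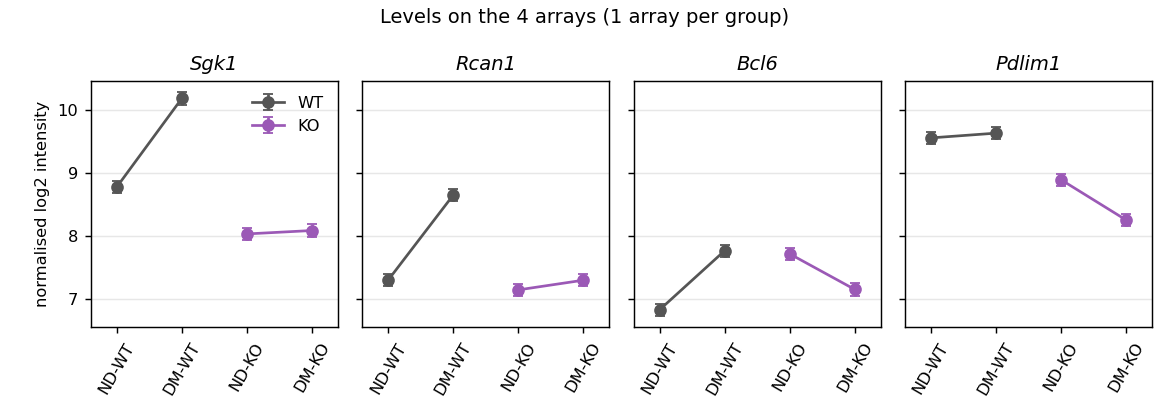
Normalised log2 intensity (vertical axis) of Sgk1, Rcan1, Bcl6 and Pdlim1 on 1 array per group, 1 point per array, with WT in grey and KO in purple. Bars are the SD between repeated control spots (0.0987 log2). Sgk1 and Rcan1 peak on DM-WT, at 10.18 and 8.65, Bcl6 is higher with diabetes in WT and lower in KO, and Pdlim1 is lowest on DM-KO at 8.25.

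The level of Bcl6 was 6.83 without and 7.77 with diabetes in WT, and 7.72 without and 7.15 with diabetes in KO. Its highest readings, on DM-WT and ND-KO, differed by 0.05, less than the spot error, and ND-WT was lowest, 0.32 below DM-KO. The spot was the dimmest of the 4, with means of 112, 193, 217 and 148 over backgrounds of 47 to 49, which is 2.39 to 4.52 times background. Diabetic WT cortex was 1.91-fold above its control (log2 difference 0.94), whereas diabetic KO cortex was 1.48-fold below its own (-0.56), just short of 1.5-fold, and past it at a background offset of 16 (-0.70) and in the authors' value table (-0.82). The genotype difference likewise had opposite signs, with KO 1.85-fold above WT without diabetes (0.89) and 1.53-fold below WT with it (-0.61). The last value fell short of 1.5-fold when arrays were scaled to their medians (-0.51). The difference of the diabetes differences was 1.499 ± 0.20 (SD between spots), the fourth highest of 5914 genes.

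For Pdlim1 the WT arrays gave 9.55 without and 9.63 with diabetes, and the KO arrays 8.89 and 8.25. Both WT arrays lay above both KO arrays, and they differed from each other by 0.08, less than the spot error. Spot means were 798, 671, 491 and 316 over backgrounds of 44.5 to 47. Diabetic WT cortex was 1.05-fold above its control (log2 difference 0.08), a sign that turned when arrays were scaled to their medians (-0.15) and in the authors' value table (-0.06). Diabetic KO cortex was 1.56-fold below its control (-0.64). KO was 1.58-fold below WT without diabetes (-0.66) and 2.59-fold below with it (-1.38). The difference of the diabetes differences, 0.71 ± 0.20 (SD between spots), lay mostly in the lower DM-KO reading. It was the smallest of the 4, ranked 33 from the highest of 5914 genes.

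Across all genes, 1.75% of 6055 measured genes were at least 1.5-fold higher in DM-WT than in ND-WT and 0.875% were lower, and 3 of the 4 genes (Sgk1, Rcan1 and Bcl6) were among the higher. With arrays scaled to their medians the split over all genes turned from 106 higher and 53 lower to 69 higher and 124 lower, and in the value table it was 213 and 186. In KO, 0.536% of 6339 genes were higher with diabetes and 0.505% lower, and Pdlim1 was among the lower. Without diabetes, 0.176% of 6258 genes were higher in KO than in WT, with Bcl6 among them, and 0.447% were lower, with Sgk1 and Pdlim1 among them. The 11 higher and 28 lower became 66 and 80 in the value table. In diabetic mice 0.769% of 6111 genes were higher in KO and 1.06% lower, and all 4 genes were among the lower. Median scaling turned this split from 47 higher and 65 lower to 62 higher and 48 lower, with Bcl6 no longer among the lower. The diabetes difference was at least 1.5-fold greater in WT than in KO for 1.01% of 5914 genes, which include the 4, and smaller for 0.575%. Median scaling turned those counts from 60 and 34 to 35 and 70. Since the 4 genes were chosen for this pattern, nothing is read from their share or from their ranks.

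**Figure D2:**
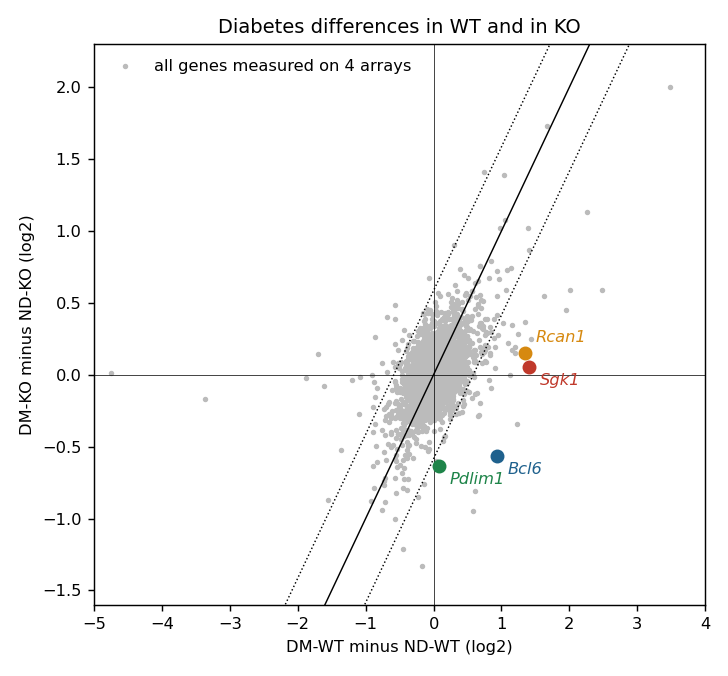
Log2 difference between diabetic and nondiabetic arrays in WT (horizontal) and in KO (vertical, on a wider scale) for 5914 genes in grey, with the 4 chosen genes in colour. The solid line marks equal differences and the dotted lines 1.5-fold unequal ones. Sgk1 (1.40 and 0.05) and Rcan1 (1.35 and 0.15) lie right of the cloud near the horizontal axis, Bcl6 (0.94 and -0.56) lies below them, and Pdlim1 (0.08 and -0.64) lies under the origin.

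The measurements of the 4 spots were set beside those around them. Gene spots within 3 rows and columns had a median difference of the diabetes differences of 0.0013 around Sgk1 (31 spots), 0.057 around Rcan1 (22 spots), 0.0716 around Bcl6 (30 spots) and 0.0207 around Pdlim1 (28 spots). The highest spot in each neighbourhood was at 0.32, 0.53, 0.51 and 0.88 in that order, so that a neighbour exceeded the central gene around Pdlim1 alone. Because the 4 genes were chosen on this same quantity, standing above their neighbours follows largely from the choice, and nothing is read from it. The authors' deposited value table holds spot mean minus background divided by 1 constant per array, and there Sgk1 stood at 9.28, 25.1, 4.96 and 5.02. The same table gave 2.56, 7.81, 2.12 and 2.45 for Rcan1. It gave 1.49, 3.77, 3.75 and 2.12 for Bcl6, and 17.1, 16.4, 9.91 and 5.76 for Pdlim1. Each order of arrays was that of the normalised levels except for Pdlim1, whose ND-WT value was above DM-WT in this table.

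**Figure D3:**
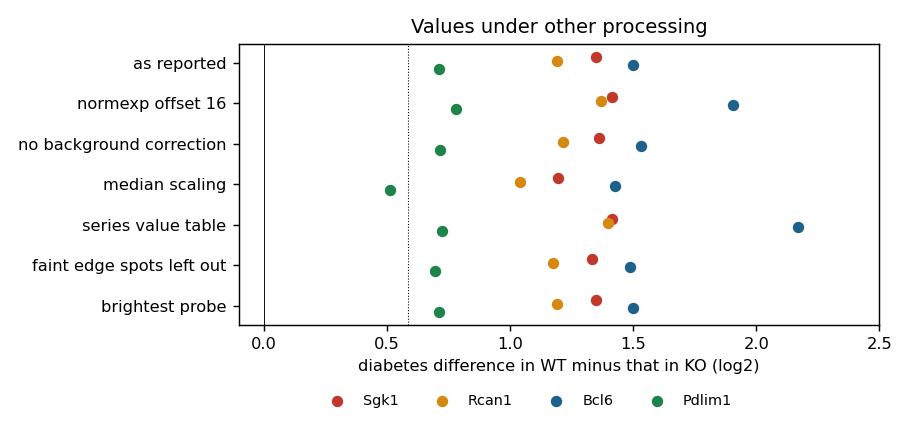
Difference between the diabetes difference in WT and that in KO (log2, horizontal) for the 4 genes under the reported processing and 6 alternatives (vertical). The dotted line marks 1.5-fold. All points lie right of 0, with Sgk1 between 1.20 and 1.42, Rcan1 between 1.04 and 1.40, Bcl6 between 1.43 and 2.17 and Pdlim1 between 0.51 and 0.78.

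The 4 arrays correlated at 0.983 to 0.994 over 5914 genes, and the 3 lowest coefficients all involved DM-WT. Usable gene spots made up 62.8% to 66.2% of each array, and the bacterial control probes gave 0.578 of their ND-WT signal on DM-WT against 1.20 and 1.25 on the KO arrays. DM-WT is also the array that carries the high values of Sgk1 and Rcan1, and the part of these array differences in the results was not tested. On all 4 arrays, 7 of 7 proximal tubule markers were usable. So were 6 of 6 thick limb and distal tubule markers and 8 of 8 collecting duct markers. These place the samples in kidney and do not tell cortex from medulla. Among 5 adipocyte markers, Adipoq (6.58) and Cfd (6.99) were usable on ND-KO alone and Retn on 0 arrays. Lpl read 10.73, 10.27, 11.19 and 9.97, and Fabp4 9.64, 10.26, 9.71 and 9.80. The part of adipocyte RNA in the values of the 4 genes was not tested. Of the 3 podocyte markers on the array, none was usable on more than 1 array. Of 6 adrenal cortex markers on the array, Star, Cyp11a1, Cyp21a1 and Hsd3b1 were not usable on any array. Akr1b7 was usable on 3 arrays and Fdx1 on 4. The 3 adrenal medulla markers Th, Pnmt and Chga were usable on all 4, at 6.67 to 7.06. Of 6 measured macrophage markers, 4 were at least 1.5-fold higher in DM-WT than in ND-WT, beside 1.75% of all genes. In KO with diabetes 0 were, beside 0.536% of all genes. The median diabetes difference of these 6 was 0.84 in WT and 0.36 in KO, and their part in the values of the 4 genes was not tested. Summed signals over background of the 7 macrophage markers on the array, with Adgre1 not usable on any, were 672, 1151, 729 and 1041. These sums are not normalised between arrays, and DM-WT was the faintest array, with a median gene signal of 37.7 against 43.5 to 46.3. For proximal tubule markers the sums were 12302, 7908, 11800 and 9829, while the median normalised diabetes difference was -0.24 in WT and -0.15 in KO. That median was 0.34 in WT and 0.20 in KO for thick limb and distal tubule markers, and 0.09 and 0.15 for collecting duct markers. The median difference of the diabetes differences was 0.21 and -0.11 for these 2 lists, and their part in the values of the 4 genes was not tested. The sums of lymphocyte markers, the lineage in which Bcl6 is best known, were 434, 477, 498 and 518. They include unusable spots, as 4 to 7 of the 10 lymphocyte markers were usable on each array.

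Other genes that glucocorticoids induce were examined as a list of 39, of which 30 were on the array and 25 were measured on all 4 arrays. None of the 4 chosen genes was in it. Their median difference of the diabetes differences was 0.27 against 0.0059 over all genes, and 20 of 25 were above 0, against 51.5% of all genes. The 2 past 1.5-fold were Gadd45g (0.93) and Pck1 (0.59), and 0 were past it in the other direction, beside 1.01% and 0.575% of all genes. The count of 2 became 5 at an offset of 16, 4 in the value table, 1 under median scaling and 0 at a 2-fold threshold. Gadd45g, a growth arrest and stress gene, read 7.58, 8.23, 7.23 and 6.95 across the groups, highest on DM-WT as for Sgk1. Pck1, the cytosolic gluconeogenic enzyme of the proximal tubule, read 12.63, 12.79, 11.98 and 11.56, with both KO arrays below both WT arrays as for Pdlim1. Ddit4, an inhibitor of mTORC1 signalling, had a difference of 0.52 and the transcription factor Cebpd 0.48, both short of 1.5-fold.

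In diabetic mice the median of this list was -0.35 between KO and WT, against -0.0102 over all genes, and 5 of 26 measured genes were at least 1.5-fold lower in KO and 0 higher, beside 1.06% and 0.769% of all genes. The 5 became 9 at an offset of 16 and 10 in the value table. In the reported setting they were Gadd45g (-1.28), Pck1 (-1.24), Tsc22d3 (-1.15), Pdk4 (-0.86), an inhibitor of pyruvate oxidation, and the sulfotransferase Sult1a1 (-0.63). Without diabetes the list median between KO and WT was -0.08 against 0.0012, and 5 of 25 genes were above 0, beside 50.7% of all genes. In that pair 2 genes, Tsc22d3 and Pck1 (-0.64), were past 1.5-fold lower in KO and 0 higher, beside 0.447% and 0.176% of all genes. In WT mice 17 of 25 were above 0 with diabetes, against 50.1% of all genes, and the median was 0.23 against 0.0001. Gadd45g (0.65) and Pdk4 (0.59) were past 1.5-fold upward, as were 1.75% of all genes. That count of 2 became 5 at an offset of 16, 6 in the value table, and 0 higher with 1 lower under median scaling. In KO the median was 0.0124 against -0.0058, and 0 passed 1.5-fold in either direction, beside 0.536% higher and 0.505% lower of all genes. The pattern was uneven within the list. Fkbp5, which encodes a receptor cochaperone and is a usual readout of glucocorticoid action, read 7.37, 7.23, 7.01 and 6.70 and had a difference of 0.16, and the clock gene Per1 had 0.03. Klf15 and Klf9, transcription factors that glucocorticoids induce, lay below 0 at -0.30 and -0.22. Tsc22d3, the glucocorticoid-induced leucine zipper, read 10.18, 10.10, 9.48 and 8.95, a KO minus WT difference of -0.70 without diabetes and -1.15 with it. Under each of the 6 other processing settings the median of the list in the difference of the diabetes differences stayed between 0.21 and 0.39.

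The receptors that would carry a steroid signal were poorly covered. Nr3c1, the glucocorticoid receptor, read 6.16, 6.02, 6.16 and 6.33 and its spot was not well above background on DM-WT, so no WT diabetes difference is given. Nr3c2, the mineralocorticoid receptor, was not analysed here. Hsd11b1, which regenerates active glucocorticoid, read 10.21 in nondiabetic WT, 9.95 in nondiabetic KO and 9.61 in diabetic KO. Its diabetic WT spot was marked poor, and its probe lies on a faint edge of the slide. Hsd11b2, which inactivates glucocorticoid in the collecting duct, read 8.47, 8.30, 8.07 and 8.09. Of 12 genes of the steroid receptor system measured on all arrays, 0 passed 1.5-fold in either direction in the difference of the diabetes differences, near the share of all genes, and their median was -0.14. In the authors' value table, 1 was lower. The 4 farthest from 0 were the coactivator Ncoa1 (-0.32), the cochaperone Fkbp4 (-0.27), the corepressor Ncor1 (-0.26) and the chaperone Hsp90aa1 (0.25). The chaperone Hsp90aa1 was the only one of 12 past 1.5-fold between KO and WT in diabetes, at 9.70 against 10.44. In that pair 1.06% of all genes were lower in KO. Without diabetes, 2 of 14 measured genes of this list were above 0 in KO against WT, beside 50.7% of all genes, and the median was -0.26 against 0.0012.

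Among genes around SGK1 in sodium handling, 22 were measured on all arrays. Of these, 0 passed 1.5-fold in the difference of the diabetes differences in either direction, near the share of all genes, and their median was -0.0026. The related kinase Sgk2 read 9.05, 8.88, 8.92 and 9.08 (difference -0.33), and Sgk3 was not analysed here. The SGK1 substrate Nedd4l read 8.17, 8.23, 8.18 and 7.90 (0.34), and Usp2, a deubiquitinase of the ENaC pathway, reached 0.40. The ENaC subunits had differences of 0.01 for Scnn1a, -0.04 for Scnn1b and 0.16 for Scnn1g. Scnn1a read 10.62, 10.82, 10.43 and 10.62, so that the diabetes difference was 0.20 in WT and 0.19 in KO. Ndrg1, another SGK1 substrate, read 8.18, 8.53, 7.23 and 7.60, a KO minus WT difference of -0.95 without diabetes and -0.93 with it, and a difference of the diabetes differences of -0.01. Tsc22d3 is listed here as well for its role in ENaC regulation. Ndrg1 and Tsc22d3 were the 2 of 22 past 1.5-fold between genotypes, in both the nondiabetic and the diabetic pair. Both were lower in KO, as were 0.447% of all genes without diabetes and 1.06% with it.

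Of 14 genes of the calcineurin and NFAT system measured on all arrays, 0 were past 1.5-fold in the difference of the diabetes differences, where 1.01% of all genes were higher and 0.575% lower, so that a count of 0 is near the background. Under median scaling 1 was lower. The catalytic subunit Ppp3ca had a difference of the diabetes differences of 0.03, Ppp3cb 0.12, Ppp3cc 0.06 and the regulatory subunit Ppp3r1 0.05. Nfatc1 and Nfatc3 were both at -0.07, while Nfatc2 was usable on 1 array and Nfatc4 on 0. Rcan2, the closest measured relative of Rcan1, read 6.92 and 6.91 in WT without and with diabetes and 6.57 in diabetic KO, and in nondiabetic KO its spot was not well above background. Its diabetes difference in WT was -0.01, against 1.35 for Rcan1. The value farthest from 0 in this list was that of Ppia, cyclophilin A, at -0.52. Gsk3b, which can phosphorylate NFAT and RCAN1, was at 0.19.

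Genes that follow hypertonicity, another known stimulus of Sgk1, went both ways. Of 8 measured, Hspa1b was past 1.5-fold upward (1.53), while Akr1b3 (-1.09) and Aqp2 (-0.61) were past it downward. Among all genes the shares were 1.01% upward and 0.575% downward. The list median was -0.18 against 0.0059 over all genes. Akr1b3, the aldose reductase that makes sorbitol, read 9.687, 9.003, 9.240 and 9.640, which is lower with diabetes in WT and higher with diabetes in KO, the reverse of Bcl6. Aqp2, the vasopressin-regulated water channel of the collecting duct, read 10.06, 10.35, 9.69 and 10.59. Aqp1, the water channel of the proximal tubule, was at -0.39.

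Partners and repressed targets of BCL6 came next. Of 15 measured on all arrays, 0 passed 1.5-fold in either direction in the difference of the diabetes differences, near the share of all genes, and their median was -0.08. With the value table, and without the filter on unusable spots, 1 was higher. The related repressor Bcl6b was at -0.08, the corepressor Ncor1 at -0.26 and the deacetylase Hdac3 at 0.01. Further from 0 than most were the corepressor subunit Mta3 (0.23), the signal transducer Stat5a (-0.18) and its feedback inhibitor Socs2 (0.14). Prdm1, Irf4 and Ccnd2 were not well above background. Cdkn1a, the cell cycle inhibitor p21, was usable on the diabetic arrays alone, where it read 8.14 in WT and 7.52 in KO. It was the 1 gene of 17 measured in that pair past 1.5-fold, where 1.06% of all genes were lower in KO.

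The last list held relatives of PDLIM1 and the actin machinery. Of 16 measured on all arrays, 0 passed 1.5-fold in the difference of the diabetes differences in either direction, near the share of all genes, and their median was -0.0001. At an offset of 16, under median scaling and in the value table, 1 was lower. Pdlim4 read 6.195, 6.438, 6.334 and 6.4995 (0.08), Pdlim5 was usable on 3 arrays, and Pdlim3 and Pdlim7 were not well above background on any. The PDLIM partner Actn4, an alpha-actinin of podocytes and other cells, was at -0.13. The values farthest from 0 were those of palladin, Palld (-0.55), and of the LIM-only genes Fhl1 (-0.36) and Fhl2 (0.25), with smooth muscle actin Acta2 at 0.20. Palld was also the 1 gene of this list past 1.5-fold between the nondiabetic arrays, where KO was lower at 6.35 against 7.02. In that pair 16 genes of the list were measured, and 0.447% of all genes were lower in KO.

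**Figure D4:**
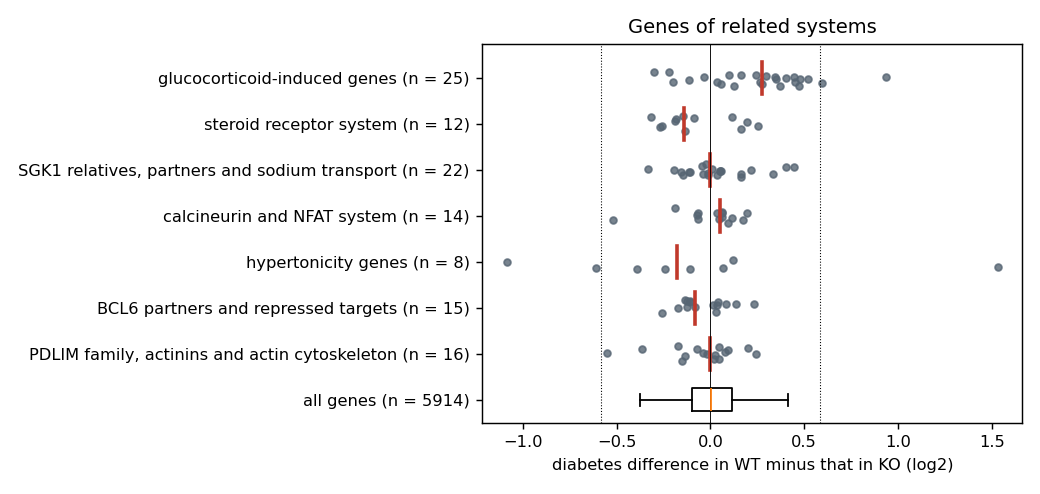
Difference between the diabetes difference in WT and that in KO (log2, horizontal) for each measured gene of 7 lists (points; vertical spread within a row is only for legibility), with the list median in red, above a box of all 5914 genes whose whiskers span the central 95%. Dotted lines mark 1.5-fold. The glucocorticoid-induced genes have a median of 0.27, and the other medians lie between -0.18 and 0.05.

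The genes most like each of the 4 were found among 5442 named genes measured on all arrays, by the Euclidean distance over the 3 log2 differences from ND-WT. Likeness here rests on 4 arrays, and the same arrays chose the members. Nearest to Sgk1 were Noct, a nocturnal phosphatase (distance 0.33), the apoptosis gene Pmaip1 (0.64), the stress transcription factor Ddit3 (0.69), the small heat shock gene Hspb1 (0.73) and Gadd45g (0.85). Noct read 7.57, 8.79, 7.03 and 6.69, again with DM-WT alone at the top and both KO arrays below ND-WT. Nearest to Rcan1 were the interferon-induced Ifit1 (0.34) and Irgm1 (0.42), the class I light chain B2m (0.42), Pmaip1 (0.42) and Cblif (0.55), and Irgm1 lies on a faint edge of the slide. B2m read 11.21, 12.33, 11.37 and 11.37, with DM-WT alone above the other 3 as for Rcan1.

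Bcl6 had its nearest genes in Ptgr2, a prostaglandin reductase (0.36), the interferon-inducible GTPases Iigp1 (0.51) and Ifi47 (0.56), Sprr2a1 (0.57) and Csn1s2b (0.59). Ptgr2 read 8.11, 8.95, 8.69 and 8.60, a smaller drop from ND-KO to DM-KO than that of Bcl6. Nearest to Pdlim1 were Tsc22d3 (0.18) and Pck1 (0.25), both in the glucocorticoid-induced list, the DnaJ cochaperones Dnajb1 (0.37) and Dnaja1 (0.51), and Alas1, the first enzyme of haem synthesis (0.49). Ranking by correlation in place of distance shared 5 of the 5 genes for Sgk1, 4 for Rcan1, 1 for Bcl6 and 4 for Pdlim1. Among the 4 genes themselves Sgk1 and Rcan1 were closest (0.91) and Bcl6 and Pdlim1 farthest apart (2.40). Sgk1 and Rcan1 both had DM-WT alone at the top, but each lay nearer to all of its 5 nearest genes than to the other. Sgk1 was also lower in ND-KO than in ND-WT (-0.74, against -0.15 for Rcan1). Bcl6 had opposite diabetes differences in the genotypes, and Pdlim1 had a stepwise lower level in KO.

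**Figure D5:**
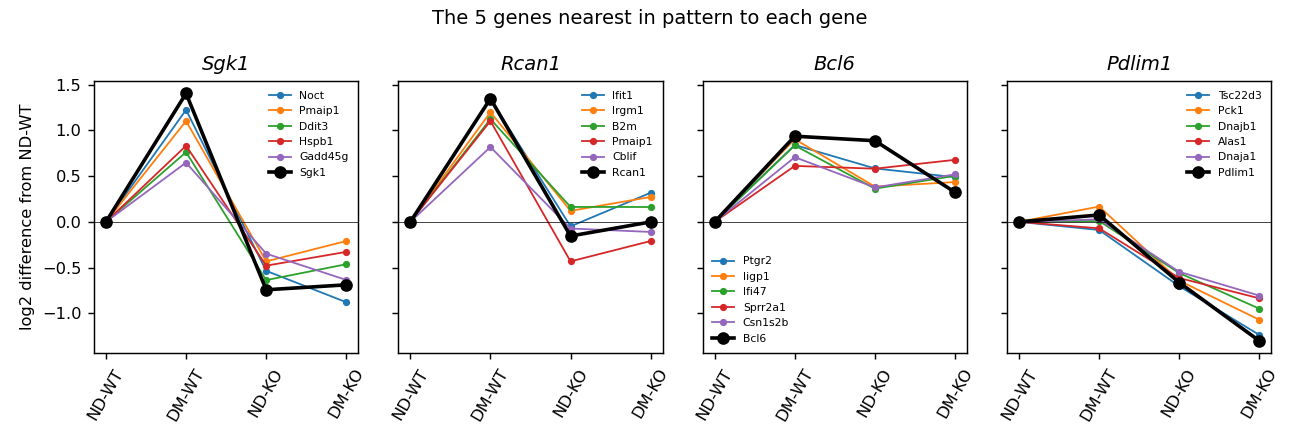
Log2 difference from ND-WT (vertical) on the 4 arrays (horizontal) for each chosen gene in black and the 5 named genes nearest to it in colour, by Euclidean distance over 3 differences. The black line for Pdlim1 runs closest to a coloured one, Tsc22d3 (distance 0.18). That for Bcl6 drops from ND-KO to DM-KO, where Ptgr2 drops less and Iigp1, Ifi47, Sprr2a1 and Csn1s2b rise.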

How the data were processed

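Per the file headers, the deposited scanner tables give each spot's mean intensity and local background median on a linear scale, and mark empty and poor spots. The series value table that the authors deposited also holds intensity, equal within 0.1% to spot mean minus background divided by 1 constant per array (38.1 for DM-WT and 43.9 to 46.9 for the others; column medians 0.926 to 0.930). How the authors chose the constant is not given in the sources used here.

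Intensities were background-corrected (normexp, offset 50) and quantile-normalized with limma 3.58.1 in R 4.3.3, and poor spots were set to missing. Probes were named through the platform annotation or accessions (9208 with 1 symbol, 1 with several, 823 with none) and averaged per gene. A gene was measured where its spots were usable on each array compared. With 1 array per group no test was run. The members, lists and alternatives were chosen with earlier results of these data known. Genes named beyond the members were the 5 nearest per member, receptors, relatives and subunits of each system, up to 4 list genes with the largest difference of diabetes differences, and further list genes named for their role after their values were seen. Some list genes are not reported here. In simulated arrays 83% of 2.83-fold and 58% of 2-fold differences passed 1.5-fold, against 0.104% of unchanged probes. The simulation held spot and background noise alone, without spread between mice or arrays. Its shares are therefore not error rates for the calls made here. Alternatives were an offset of 16, no background correction, median scaling, the value table, edge spots left out, the brightest probe, no filter on unusable spots and a 2-fold threshold.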

Additional observations from a re-analysis of the deposited data

Results flagged for a closer look

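Hspa1b, an inducible heat shock gene of the hypertonicity list, was higher with diabetes in WT (11.28 against 10.70) and lower with diabetes in KO (9.10 against 10.04), which makes its effects opposite in the 2 genotypes. The difference of the diabetes differences was 1.53, close to the 1.499 of Bcl6. With 1 array per group the difference was not tested. Its probe may also read the near-identical Hspa1a.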

How the results depend on the processing

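The difference of the diabetes differences stayed above 0 for all 4 genes under the 6 settings that recompute levels. It moved by more than the spot error for Rcan1 in the deposited value table (1.40), for Bcl6 at an offset of 16 (1.91) and in the value table (2.17), and for Pdlim1 under median scaling (0.51, then short of 1.5-fold). Over all member values and settings, 97 stayed within the spot error, 23 moved and the WT diabetes difference of Pdlim1 ranged from -0.15 to 0.08. The counts of genes past 1.5-fold over all genes were less stable. Of the counts over lists and nearest genes, 12 moved by over 1.5 times and 87 did not, and those over the glucocorticoid-induced genes stand beside their results. In each pair the higher count comes before the lower one. At an offset of 16 they were 171 and 93 for diabetes in WT, 61 and 54 for diabetes in KO, 26 and 52 for genotype without diabetes, 74 and 112 for genotype with diabetes, and 111 and 73 for the difference of the diabetes differences. In the value table the same counts were 213 and 186, 87 and 105, 66 and 80, 106 and 158, and 176 and 128. At a 2-fold threshold they were 27 and 10, 9 and 3, 3 and 3, 7 and 19, and 17 and 10. Median scaling gave 69 and 124 for diabetes in WT, 62 and 48 for genotype with diabetes and 35 and 70 for the difference of the diabetes differences. Without the filter on unusable spots, 90 genes were lower with diabetes in WT, 18 higher and 93 higher in KO without and with diabetes, and 71 lower in the difference. The cause of these shifts was not tested. No paired analysis was possible because each group has 1 array, and for the same reason no array could be left out. Bcl6 was the dimmest of the 4, at 2.39 to 4.52 times background.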
